A study of Homo sapiens with 2 samples.

Results

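Aminoacyl-tRNA synthetases join each amino acid to its tRNA, the step that supplies charged tRNA to the ribosome. Cells keep one set of these enzymes in the cytosol and another, also encoded in the nucleus, for translation inside mitochondria. Of the 13137 genes in the deposited table, 37 belong to this family by their symbols. They are 20 enzymes of the cytosol, 16 mitochondrial enzymes with symbols ending in 2, and TARSL2, a threonyl-tRNA synthetase-like gene that was kept apart from both sets because its name does not place it in mitochondria. GARS and KARS also serve mitochondria from the same gene and were counted with the cytosolic set. EPRS carries the enzymes for glutamate and proline in a single protein, and FARSA and FARSB are the subunits of the phenylalanine enzyme. Many cytosolic synthetase genes are known targets of ATF4, the transcription factor of the amino acid and stress response, and 12 such genes were listed: AARS, CARS, EPRS, GARS, IARS, LARS, MARS, NARS, SARS, TARS, WARS and YARS.

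The cells were A549, a human lung adenocarcinoma line, made to carry either a doxycycline-inducible shRNA against SOX2 (A549-H1tetO-shRNA-SOX2) or a scrambled shRNA (A549-H1tetO-shRNA-Con). Both lines received lentivirus, were selected with puromycin as polyclonal populations and were kept with doxycycline for 4 days. A single hairpin against SOX2 was used, and 1 library was made for each condition from 4 µg of total RNA. The comparison asked which transcripts differ when SOX2, a transcription factor of stem cells, is silenced.

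Digital gene expression counts a short tag from each captured mRNA, so tags were not divided by transcript length. Gene tags numbered 2304184 for shRNA-Con against 2093816 for the library labelled shRNA-SOX2, and levels are given as scaled tags, the tags of a gene per 1000000 gene tags of its library. For SOX2 there were 16 tags in shRNA-Con against 23 in the library labelled shRNA-SOX2 (ratio 1.58, 95% interval 0.80 to 3.20), so silencing was not seen in its tags. The column names S1 and SC were read as shRNA-SOX2 and shRNA-Con, and every direction given rests on that reading. The epithelial keratins KRT8 (7702 tags in shRNA-Con against 12729 in the other library) and KRT18 (10318 and 7887) were abundant. The epithelial markers CDH1 (50 and 50) and EPCAM (8 and 4) were scarce, at levels like those of the fibroblast collagen COL1A1 (44 and 43) and of CD14 (11 and 10), a marker of blood cells. The epithelial keratin KRT19 had 35 and 127 tags (ratio 3.99, Fisher's exact test, adjusted p = 2.73e-14). The fibroblast markers COL1A2, COL3A1 and DCN, the blood markers CD3E and HBB, and the endothelial markers CDH5 and VWF were not among the genes listed in the deposited data. PTPRC, of blood cells, had 2 tags in each library and PECAM1, of endothelium, had 3 and 0. Each condition has 1 library, and the spread between replicates is therefore unknown. Genes were compared with Fisher's exact test (two-sided) at a false discovery rate (FDR) of 0.001 over the whole table, which compares these libraries and not the conditions. Intervals are at 95% and reflect counting error alone.

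The promoters of the members were read for sequence letters, and the windows that held them are shown since most belong to cytosolic members that fell. The motifs were chosen after the tag values had been seen. The list of ATF4 targets was written from what is known of ATF4, and with earlier results of these data known. The counts by list are therefore a description and not independent of that knowledge or of those results. Promoter windows of 300 bases from RefSeq (GRCh38.p14) were matched by gene ID for 30 of the 37 members. They were not matched for DARS, LARS, VARS, YARS, AARS2, VARS2 and TARSL2. They were searched on both strands for TGATGNAA (TTNCATCA on the opposite strand), the core letters of the amino acid response element bound by ATF4 with a C/EBP partner, and for CACGTG, the E-box bound by MYC. The letters TGATGNAA were found in the windows of 6 of 10 matched cytosolic ATF4 targets, 0 of 6 matched other cytosolic members and 1 of 14 mitochondrial members, against 3.67% of all 27305 promoters. They were in 5 of the 9 matched cytosolic members that fell and in 1 of the 7 that did not. The windows are written 5′ to 3′ on the strand of the gene, with the motif in capitals.
IARS (chr9:92293695-92293718, minus strand): tcagcgcgTTGCATCAcctccgtg
AARS (chr16:70289678-70289701, minus strand): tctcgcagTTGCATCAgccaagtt
NARS (chr18:57621807-57621830, minus strand): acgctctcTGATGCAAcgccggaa
MARS (chr12:57488056-57488079, plus strand): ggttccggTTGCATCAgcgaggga
CARS (chr11:3057410-3057433, minus strand): ggcggcggTTGCATCAgattctag
TARS (chr5:33440959-33440982, plus strand): cctttcgaTTGCATCAgctggtcc
YARS2 (chr12:32756079-32756102, minus strand): cacactgcTGATGGAAaaattaag

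In all 6 cytosolic windows the variable base of the motif was a C, so that each held TGATGCAA or, read on the opposite strand, TTGCATCA, which 0.923% of all promoters hold. This narrower form was searched only after the windows had been seen. The motif began 2, 4 and 13 bases before the annotated start in CARS, MARS and IARS, and 187 bases before it in AARS. In TARS and NARS it began at base 3 and base 15 of the transcript. The mitochondrial YARS2 carried the form with a G. CACGTG was found in 1 of 10 ATF4 targets (IARS), in 0 of 6 other cytosolic members and in 3 of 14 mitochondrial members (CARS2, EARS2 and MARS2), against 7.43% of all promoters. A match of letters describes the window and was not a test of binding.

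Of the 13 synthetase mRNAs that fell between the libraries, 11 were cytosolic, and of the 5 that rose, 3 were. Among the 20 cytosolic members, 11 had fewer tags at FDR 0.001 when the library labelled shRNA-SOX2 was set against shRNA-Con, 3 were higher and 6 did not pass. Among the 16 mitochondrial members, 2 were lower, 2 were higher and 12 did not pass. Of all genes tested, 12.2% were lower and 9.53% higher by this rule. A call needs tags, and every cytosolic member had at least 138 in the libraries together. Of the genes with at least 100 tags, 22.5% were lower and 16.6% higher. By size alone, 11 of 20 cytosolic members and 6 of 15 mitochondrial members with at least 20 tags were lower by 1.5-fold or more, against 26.6% of all genes with that many tags. Scaled by TMM factors, the mitochondrial count was 4 of 15, against 2353 of 10045 genes, and the cytosolic count stayed at 11. The median ratio also gave 4 of 15. Higher by 1.5-fold were 2 of 20 and 3 of 15, against 20.5%.

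The median log2 fold change was -0.92 over the cytosolic set and -0.036 over the mitochondrial set, against -0.10 over the 10045 genes with at least 20 tags. The mitochondrial median rests on the scarce members. Over the 5 with at least 100 tags (CARS2, EARS2, HARS2, IARS2 and NARS2) it was -0.60, where all genes had -0.13 and the cytosolic set, all above that minimum, kept -0.92. With TMM factors it was 0.037 over the 15. Scaling by all clean tags of a library, the base of the authors' TPM, lowers every gene by a further 0.11 on the log2 scale. Relative to the median of all genes, 14 of 20 cytosolic and 7 of 15 mitochondrial members lay below it. Summed, the cytosolic members took 9356 tags in shRNA-Con (4060 scaled) against 5043 in the library labelled shRNA-SOX2 (2409 scaled), a ratio of 0.593 (95% interval 0.573 to 0.614). The mitochondrial members took 1134 tags (492 scaled) and 909 (434 scaled), a ratio of 0.882 (0.808 to 0.963). That decrease rests on IARS2, which alone took 372 and 118 of these tags. Summed without it, the mitochondrial members were not lower. Mitochondrial enzymes made up 10.8% of all synthetase tags in shRNA-Con (Clopper-Pearson interval 10.2% to 11.4%) and 15.2% in the other library (14.3% to 16.1%).

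**Figure D1:**
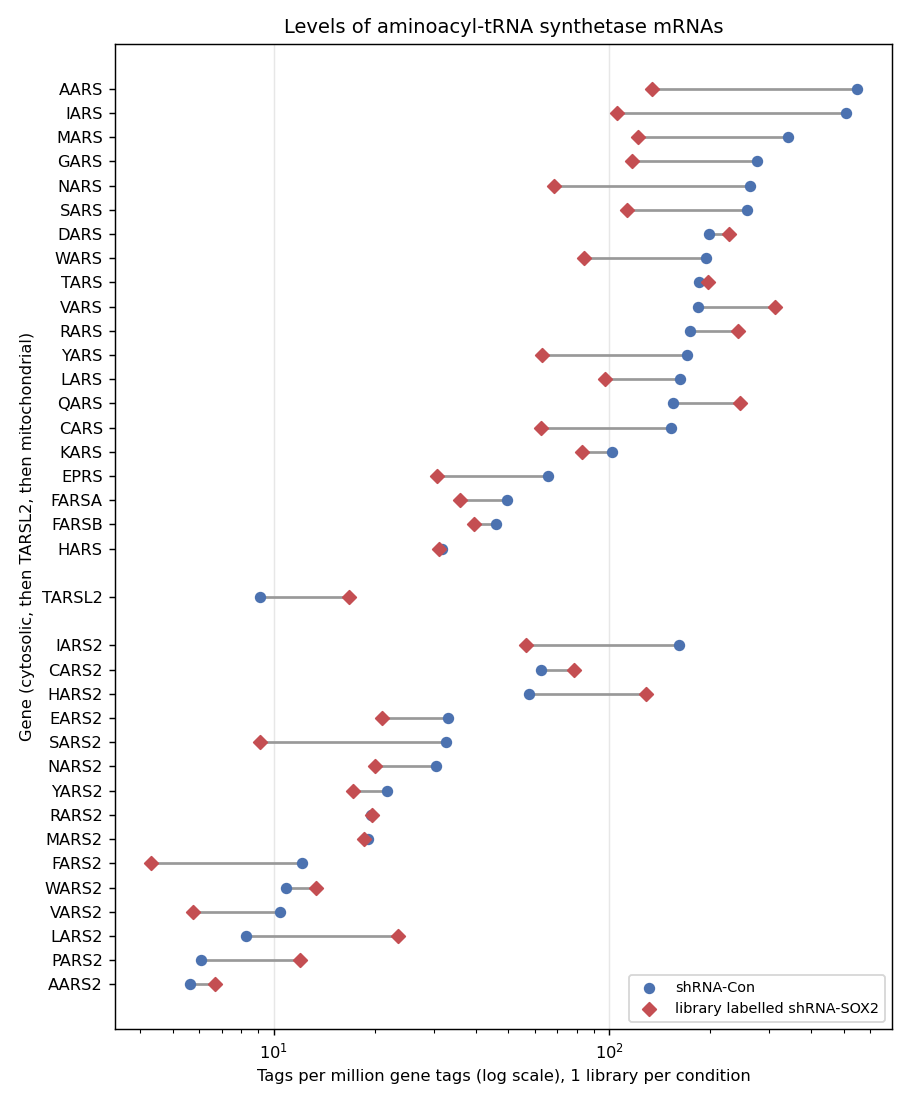
Scaled tags (tags per 1000000 gene tags, log axis) for 36 synthetase genes in shRNA-Con (blue circles) beside the library labelled shRNA-SOX2 (red diamonds), 1 library each, ordered within each set by the level in shRNA-Con. TARS2, with 2 and 0 tags, is not drawn. AARS and IARS head the cytosolic set in shRNA-Con and VARS heads it in the other library.

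In shRNA-Con the most abundant cytosolic synthetase mRNAs were AARS, for alanine, with 548 scaled tags and IARS, for isoleucine, with 506. These were also among the mRNAs of the family that lost most. AARS (Entrez Gene ID 16) went from 1262 tags to 280, 134 scaled tags, at a log2 fold change of -2.03 (95% interval of the ratio 0.214 to 0.278, Fisher's exact test, adjusted p = 7.19e-127). IARS (Entrez Gene ID 3376) went from 1166 tags to 220, at a log2 fold change of -2.27 (0.179 to 0.240, Fisher's exact test, adjusted p = 1.33e-134). AARS and IARS together held 26.0% of the cytosolic synthetase tags in shRNA-Con against 9.91% in the library labelled shRNA-SOX2. Among the 10045 genes with at least 20 tags, IARS stood 119th and AARS 174th from the largest decrease.

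NARS, which charges asparagine, went from 607 tags to 143, at a log2 fold change of -1.95 (95% interval of the ratio 0.215 to 0.312, Fisher's exact test, adjusted p = 1.04e-57). Next among the cytosolic members was MARS, for methionine, with 785 and 255 tags at a log2 fold change of -1.48 (0.309 to 0.412, Fisher's exact test, adjusted p = 4.89e-51). YARS, for tyrosine, had 393 and 132 tags (-1.44, interval 0.301 to 0.451, Fisher's exact test, adjusted p = 1.81e-24). CARS, for cysteine, had 353 and 131 tags (-1.29, interval 0.332 to 0.50, Fisher's exact test, adjusted p = 6.73e-19). The counting intervals of IARS and AARS did not overlap those of MARS, YARS or CARS.

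GARS, the glycine enzyme of both compartments, had 635 tags in shRNA-Con against 245 in the library labelled shRNA-SOX2, at a log2 fold change of -1.24 (95% interval of the ratio 0.365 to 0.493, Fisher's exact test, adjusted p = 2.13e-31). WARS, for tryptophan, had 448 and 176 tags (-1.21, interval 0.361 to 0.516, Fisher's exact test, adjusted p = 1.69e-21). WARS is also induced by interferon, and it fell here. SARS, for serine, had 591 and 237 tags (-1.18, interval 0.378 to 0.514, Fisher's exact test, adjusted p = 3.29e-27). The least changed of the 11 was LARS, for leucine, with 374 and 203 tags (-0.74, interval 0.501 to 0.711, Fisher's exact test, adjusted p = 2.19e-08). EPRS, the scarcest of them, had 151 and 64 tags (-1.10, interval 0.343 to 0.629, Fisher's exact test, adjusted p = 9.36e-07).

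All 11 cytosolic members that fell were on the list of 12 ATF4 targets, and 0 of the 8 other cytosolic members fell. Of all genes with at least 100 tags, 22.5% were lower, and 0 of 8 is not far from that share. The exception on the list was TARS, for threonine, with 427 tags in shRNA-Con against 413 in the library labelled shRNA-SOX2 (ratio 1.06, 95% interval 0.927 to 1.22). Its log2 fold change was 0.090 with gene tags and -0.023 with clean tags. TARS carried the TTGCATCA motif like IARS, AARS, MARS and CARS, while EPRS, GARS, SARS and WARS fell without a match in their windows. The median log2 fold change was -1.26 over the 12 targets and 0.087 over the 8 others, and the latter was -0.026 with clean tags. The targets took 76.9% of the cytosolic synthetase tags in shRNA-Con (interval 76.0% to 77.7%) and 49.6% in the other library (48.2% to 50.9%). The list of ATF4 targets was written with earlier results of these data known, so the split is a description.

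The 3 cytosolic mRNAs that rose charge valine, glutamine and arginine. VARS had 423 tags in shRNA-Con against 653 in the library labelled shRNA-SOX2, at a log2 fold change of 0.76 (ratio 1.7, 95% interval 1.5 to 1.9, Fisher's exact test, adjusted p = 1.79e-16). QARS had 357 and 513 tags, at a log2 fold change of 0.66 (interval of the ratio 1.38 to 1.82, Fisher's exact test, adjusted p = 2.99e-10). RARS had 400 and 505 tags, at a log2 fold change of 0.47 (1.22 to 1.59, Fisher's exact test, adjusted p = 6.75e-06). With clean tags RARS, QARS and VARS remained higher at FDR 0.001. Together they took 1180 and 1671 tags, which made up 12.6% of the cytosolic synthetase tags in shRNA-Con against 33.1% in the other library. Part of that larger share comes from the smaller cytosolic total, which went from 9356 tags to 5043.

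The 5 other members outside the ATF4 list did not pass the test. DARS, for aspartate, had 456 and 477 tags (ratio 1.15, interval 1.01 to 1.31). KARS, for lysine, had 235 and 173 (0.810, 0.662 to 0.990), and HARS, for histidine, had 73 and 65 (0.980, 0.691 to 1.39), with a log2 fold change of -0.029 that became 0.044 with TMM factors. The phenylalanine subunits had 114 and 75 tags for FARSA and 106 and 83 for FARSB. The ratio of FARSA to FARSB tags was 1.08 in shRNA-Con against 0.904 in the other library, and the interval of the change in that ratio, 0.546 to 1.29, included 1.

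**Figure D2:**
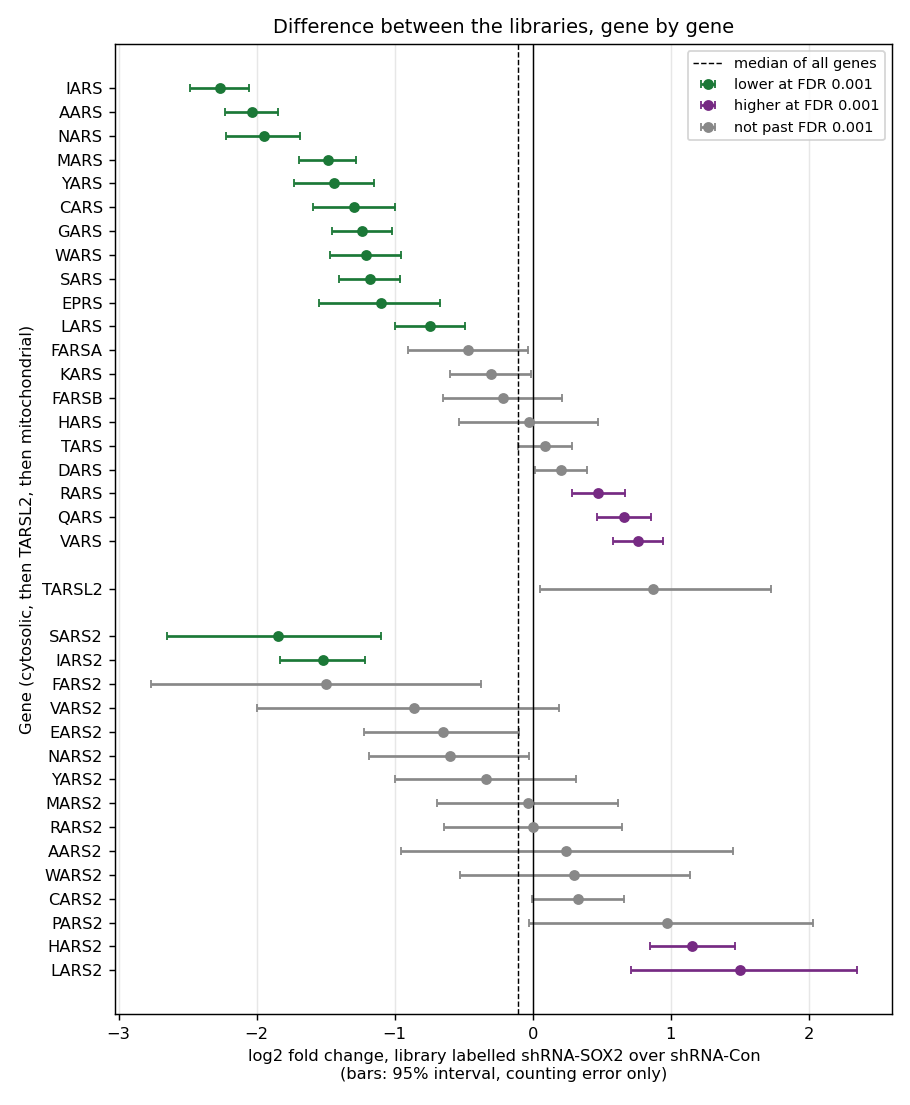
log2 fold change of each of 36 synthetase genes, library labelled shRNA-SOX2 over shRNA-Con, with 95% counting intervals, for the cytosolic set, TARSL2 and the mitochondrial set. Green points are lower and purple points higher at FDR 0.001, grey points did not pass, and the dashed line is the median of all genes (-0.10). The 11 green cytosolic points lie between -2.27 and -0.74, and the intervals of 8 of 15 mitochondrial points include 0.

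Several synthetases of the cytosol reside in a large multisynthetase complex, held together by the scaffold proteins AIMP1, AIMP2 and EEF1E1. Of the 8 genes that encode its enzymes, IARS, MARS, EPRS and LARS fell, QARS and RARS rose, and KARS and DARS did not pass the test. Their log2 fold changes ran from -2.27 to 0.66, so mRNAs of enzymes that share a complex moved in both directions. Of the 12 cytosolic members outside the complex, 7 fell and 1 (VARS) rose, where 22.5% of all genes with at least 100 tags were lower and 16.6% higher. Among the scaffolds, AIMP2 had 42 tags in shRNA-Con against 9 in the library labelled shRNA-SOX2, at a log2 fold change of -2.08 (Fisher's exact test, adjusted p = 8.52e-05). EEF1E1 had 301 and 123 tags, at a log2 fold change of -1.15 (Fisher's exact test, adjusted p = 1.30e-13). AIMP1 had 173 and 191 tags (0.28) and did not pass. By structural class, 6 of 9 mRNAs of class I enzymes fell and 3 rose, and 4 of 10 of class II enzymes fell and 0 rose. These counts stand against the same shares of all genes. EPRS, which holds an enzyme of each class, was left out.

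The mitochondrial mRNAs were scarcer. Their median level was 19.3 scaled tags in shRNA-Con against 179 for the cytosolic set, and 17.9 against 101 in the library labelled shRNA-SOX2. IARS2, for isoleucine, was the most abundant in shRNA-Con, with 372 tags, and had 118 in the other library, at a log2 fold change of -1.52 (ratio 0.349, 95% interval 0.281 to 0.431, Fisher's exact test, adjusted p = 3.41e-25). SARS2, for serine, had 75 and 19 tags, at a log2 fold change of -1.84 (interval of the ratio 0.159 to 0.466, Fisher's exact test, adjusted p = 5.51e-07). For isoleucine and serine, then, the mRNAs of both compartments fell.

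HARS2, for histidine, rose from 133 tags to 269, at a log2 fold change of 1.15 (ratio 2.23, 95% interval 1.80 to 2.76, Fisher's exact test, adjusted p = 1.21e-13). LARS2, for leucine, rose from 19 tags to 49, at a ratio of 2.84 (95% interval 1.64 to 5.10, Fisher's exact test, adjusted p = 0.000263). HARS2 became the most abundant mitochondrial member in the library labelled shRNA-SOX2, with 128 scaled tags. HARS and HARS2 are transcribed away from each other from starts 85 bases apart in RefSeq, and HARS2 passed the test while HARS did not.

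The other 12 mitochondrial members did not pass. FARS2 (28 and 9 tags, ratio 0.354, interval 0.147 to 0.771) and EARS2 (76 and 44 tags, 0.637, 0.429 to 0.936) had the lowest adjusted p-values of these, 0.0153 and 0.0469 by Fisher's exact test. NARS2 had 70 and 42 tags, VARS2 24 and 12, YARS2 50 and 36 and MARS2 44 and 39. The log2 fold change of MARS2, -0.036, became 0.037 when TMM factors were used, and that of RARS2 was -0.11 with clean tags. RARS2 had 45 and 41 tags, WARS2 25 and 28, CARS2 144 and 164, AARS2 13 and 14 and PARS2 14 and 25. For AARS2 the interval of the ratio, 0.517 to 2.74, included the ratio of LARS (0.597) and not that of AARS (0.244). TARS2, with 2 tags in shRNA-Con against 0 in the other library, was under the limit of 3 tags that a count of 0 allows in both and was given no fold. TARSL2 had 21 and 35 tags (ratio 1.83, interval 1.04 to 3.32, Fisher's exact test, adjusted p = 0.0775).

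Comparing the enzymes that charge the same amino acid in each compartment removes the scaling between libraries. Of 17 pairs, 16 had enough tags, with EPRS and FARS2 each used in 2 pairs. In shRNA-Con the cytosolic mRNA was the more abundant in 15 of 16, with a median ratio of 8.28, and in the library labelled shRNA-SOX2 in 14 of 16, with a median ratio of 5.21. The interval of the change in this ratio lay below 1 in 10 pairs, above 1 in 2 and included 1 in 4. These intervals were not adjusted for the number of pairs, and no share over all genes was available for such pairs. In each of the 10 except HARS to HARS2 the cytosolic member had itself been called lower. The count therefore largely restates those calls. AARS was 97.1 times as abundant as AARS2 in shRNA-Con and 20 times in the other library, a change of 0.206 (interval 0.0882 to 0.479). LARS to LARS2 went from 19.7 to 4.14, with LARS falling and LARS2 rising. CARS to CARS2 went from 2.45 to 0.799, which turned the order of that pair. HARS was the less abundant of its pair in both libraries, at 0.549 and 0.242 of HARS2.

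In the opposite direction, VARS to VARS2 went from 17.6 to 54.4, a change of 3.09 (interval 1.46 to 6.85), and FARSB to FARS2 went from 3.79 to 9.22 (2.44, interval 1.04 to 6.18). The pairs whose interval included 1 were EPRS to EARS2, FARSA to FARS2, RARS to RARS2 and SARS to SARS2. For serine both mRNAs fell, and the ratio was 7.88 and 12.5.

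**Figure D3:**
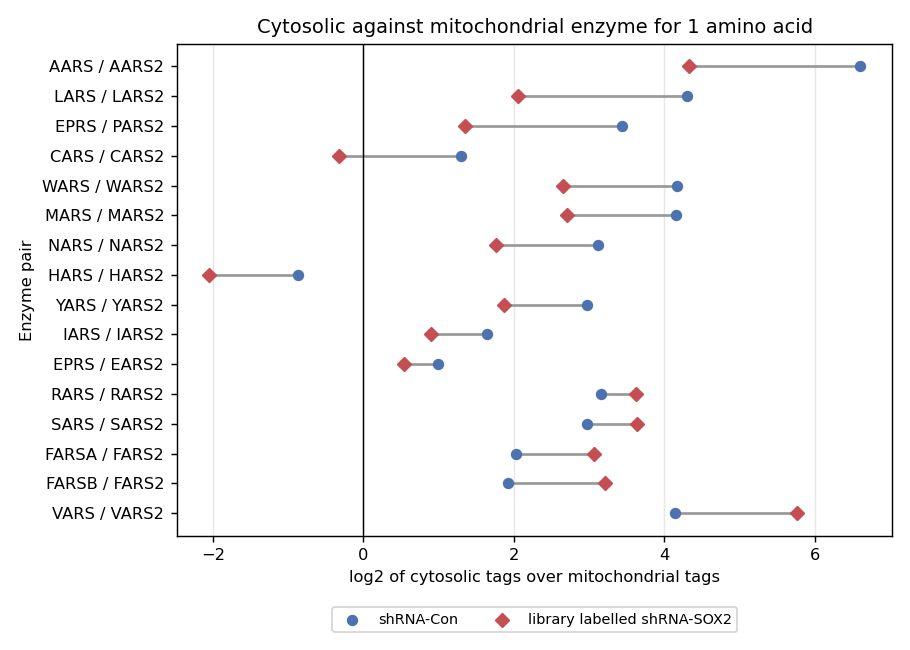
log2 of the tags of the cytosolic enzyme over those of the mitochondrial enzyme for 16 pairs, in shRNA-Con (blue circles) beside the library labelled shRNA-SOX2 (red diamonds), ordered by the change. Values above 0 mean more cytosolic tags. The line moves left in 11 pairs, and CARS to CARS2 crosses 0.

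Other genes that handle tRNA were set beside the synthetases. XPOT, which exports tRNA from the nucleus, had 1070 tags in shRNA-Con against 143 in the library labelled shRNA-SOX2, at a log2 fold change of -2.77 (Fisher's exact test, adjusted p = 4.78e-155), a lower fold change than that of any synthetase. DTD1, an editing enzyme that removes D-amino acids from tRNA, had 244 and 90 tags (-1.30). The other 6 of the 8 genes of tRNA export, maturation, editing and hydrolysis did not pass, among them TRNT1, which adds the CCA end (130 and 110 tags), and AARSD1 (139 and 142). Of 10 genes of ATF4 and amino acid supply, 5 fell and 0 rose. Of all genes tested, 12.2% were lower and 9.53% higher, and with at least 100 tags 22.5% and 16.6%. The list was chosen with earlier results of these data known. PHGDH, the first enzyme of serine synthesis, went from 266 tags to 34 (log2 fold change -2.83). PYCR1, of proline synthesis, went from 318 to 61 (-2.24). ASNS, which makes the asparagine that NARS charges, went from 430 to 116 (-1.75), and PSAT1, of serine synthesis, from 1565 to 463 (-1.62). ATF4 itself had 824 and 548 tags (-0.45, Fisher's exact test, adjusted p = 1.23e-07). SHMT2 (213 and 199 tags), PSPH (109 and 81), ALDH18A1 (154 and 109), GPT2 (81 and 50) and CTH (6 and 3) did not pass.

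Charged tRNA is carried to the ribosome by elongation factor 1 in the cytosol and by TUFM in mitochondria. The carrier EEF1A1 had 21756 and 17742 tags (log2 fold change -0.16) and its relative EEF1A2 had 392 and 611 (0.78). Of the exchange factor subunits, EEF1B2 had 6535 and 3988 tags (-0.57), EEF1D 622 and 369 (-0.62) and EEF1G 5498 and 5721 (0.20). All 5 passed the test, 3 lower and 2 higher, where 22.5% of all genes with at least 100 tags were lower and 16.6% higher. Each had at least 991 tags, and at such numbers small differences pass. Relative to the median of all genes, the log2 fold change of EEF1A1 was -0.053. With clean tags the log2 fold change of EEF1G was 0.082 and it no longer passed (Fisher's exact test, adjusted p = 0.00865). EEF1A1 has processed pseudogenes that may share its tags.

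On the mitochondrial side, TUFM did not pass (726 and 720 tags). Of 11 mitochondrial translation factors, MTIF2, an initiation factor, fell (265 and 99 tags, log2 fold change -1.28), TSFM, the exchange factor of TUFM, rose (219 and 309 tags, 0.63) and 9 did not pass. QRSL1 (63 and 50 tags) and PET112 (25 and 32), of the enzyme that makes mitochondrial glutaminyl-tRNA, and MTFMT (24 and 15), which formylates the initiator, did not pass. Of 76 mitochondrial ribosomal protein genes, 17 fell, 4 rose and 55 did not pass, with a median log2 fold change of -0.21. Of all genes with at least 20 tags, 15.8% were lower and 12.2% higher, and with at least 100 tags 22.5% and 16.6%, and the share of these genes that fell was near the latter. MRPS2 (133 and 32 tags) had the lowest fold change among those that fell and MRPL52 (76 and 242 tags) the highest among those that rose.

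**Figure D4:**
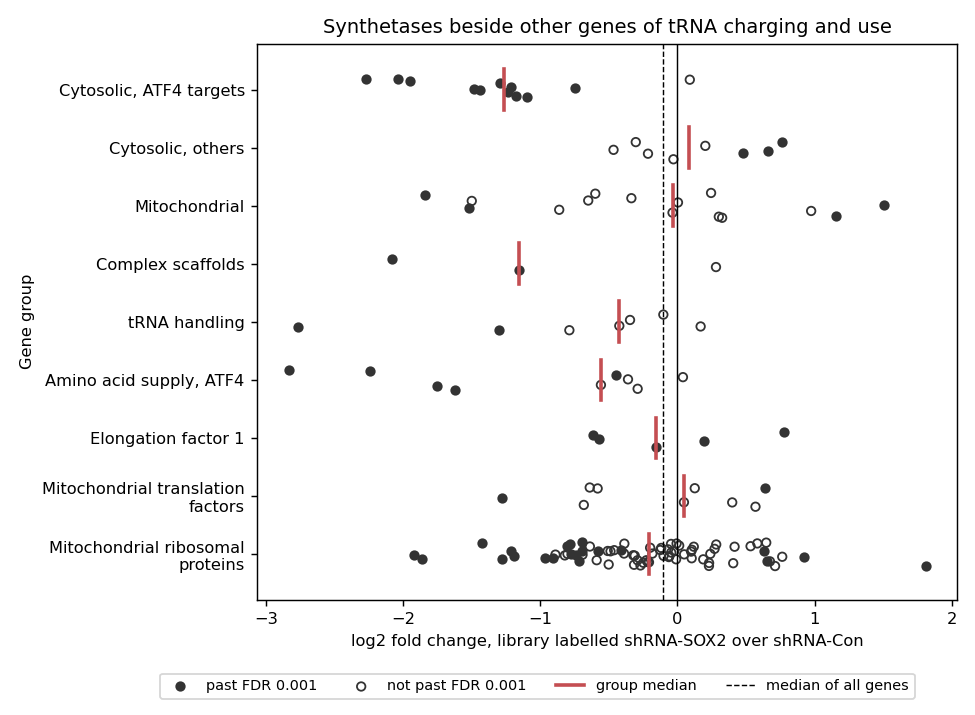
log2 fold change, library labelled shRNA-SOX2 over shRNA-Con, of genes with at least 20 tags, in 9 groups of tRNA charging and use. Filled points passed FDR 0.001, open points did not, red bars are group medians and the dashed line is the median of all genes. The median of the cytosolic ATF4 targets is -1.26, and those of the other cytosolic and the mitochondrial synthetases are 0.087 and -0.036. The former is -0.026 with clean tags, and the latter is 0.037 with TMM factors and -0.60 over the 5 members with at least 100 tags.

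The calls have the limits of this pair of libraries. If the spread between cultures were a biological coefficient of variation of 0.2, edgeR's exact test at FDR 0.001 would keep 2 of the 11 cytosolic decreases (AARS and IARS), where it calls 0.365% of all genes lower. It would keep 0 of the 3 cytosolic increases, where it calls 0.495% of all genes higher. The annotated exons of 5 cytosolic and 5 mitochondrial members overlap those of another gene in the table, and how the tags were assigned to strands is not given in the sources used here. MARS shares 355 exon bases with DDIT3, an ATF4-induced gene on the opposite strand with 134 and 29 tags. HARS2 shares 437 exon bases with HARS on the opposite strand and 152 on its own strand with ZMAT2, which had 218 and 54 tags. SARS2 shares 349 exon bases with MRPS12 (542 and 394 tags) on the opposite strand. It also shares 1492 on its own strand with AC011455.2, which was not among the genes listed in the deposited data. VARS2 shares 1858 exon bases on its own strand with GTF2H4, which had 8 and 8 tags. None of these neighbours' part in a member's value was tested. Without the overlapping members, 8 of 15 cytosolic members fell and 3 rose, and 1 of 11 mitochondrial members fell and 1 rose.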

How the data were processed

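The authors purified mRNA with oligo(dT) beads and counted digital gene expression tags, and the deposited counts are unnormalized tags per Entrez Gene ID. The submitters' processing notes name hg19, and the aligner and annotation are not given in the sources used here. The authors' TPM divides the count by all clean tags (3516266 for shRNA-Con, 3456234 for the library labelled shRNA-SOX2), with 0 written as 0.01. The authors' deposited log2 ratio, p-values and FDR compare the libraries and were not used. The column names were mapped from SC and S1, and 65.5% and 60.6% of clean tags were on genes.

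log2 fold changes were computed from tags divided by the library's gene tags, with counts below 3 set to 3. Fisher's exact test was adjusted over 13137 genes by the method of Benjamini and Hochberg. Intervals of a ratio are exact conditional intervals. Group medians used genes with at least 20 tags. Members and lists were chosen with earlier results of these data known, and both sets were fixed by symbol. Every member is named, and genes of other lists are named mainly where they passed FDR 0.001. Those named without passing were added to complete short lists. DDIT3, ZMAT2, MRPS12, GTF2H4 and AC011455.2 were chosen for their overlap with members, and MRPS2 and MRPL52 as extremes. Groups were described and not tested. Exon overlaps came from GENCODE release 29 (GRCh38), and the motifs were chosen after the values were seen. The alternatives were TMM factors, the median ratio, clean tags, tag minimums, an assumed coefficient of variation of 0.1, 0.2 or 0.4, FDR 0.05 and 0.5 added to counts. The test was checked on simulated counts that held counting error alone, so the check does not cover the spread between cultures. Python 3.11.15, scipy 1.17.1, R 4.3.3, edgeR 4.0.16 and DESeq2 1.42.0 were used.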

Additional observations from a re-analysis of the deposited data

How the results depend on the processing

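No paired analysis was possible because there was a single library of each condition, which also meant that none could be left out. The cytosolic decreases stayed at 11 when the scaling was changed or genes under 10 tags were not tested, and were 9 with an assumed coefficient of variation of 0.1. With 0.2 the cytosolic decreases and those of the ATF4 targets numbered 2, and the mitochondrial decreases 0. With 0.4 each of these, and every other count of calls, was 0. The cytosolic increases, all outside the ATF4 list, were 0 with 0.1, 0.2 or 0.4, and the mitochondrial increases were 1 with 0.1 and 0 with 0.2 or 0.4. Over all genes, 1597 were lower and 1252 higher. These counts were 2010 and 1008 with clean tags, 654 and 512 with 0.1, and 48 and 65 with 0.2. The losses follow from the assumed spread.

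At FDR 0.05 the mitochondrial decreases were 4, and over all genes 2754 were lower and 2148 higher. With clean tags 1 of the cytosolic increases, again outside the ATF4 list, reached 1.5-fold instead of 2. With at least 100 tags, 3 of the 5 mitochondrial members left were 1.5-fold lower and 1 higher, against 25.4% and 17.2% of all genes (1586 and 1071). Their median log2 fold change was -0.60 instead of -0.036, and the cytosolic median did not move from -0.92. Leaving out overlapping members, an alternative chosen after seeing the data, left 8 cytosolic decreases, and 1 mitochondrial decrease and 1 increase instead of 2 each. The sign turned for HARS (0.044 with TMM factors, 0.041 with the median ratio), MARS2 (0.037 and 0.035), TARS (-0.023 with clean tags) and RARS2 (-0.11 with clean tags), none of which was called. Counting TARSL2 as mitochondrial or leaving out GARS and KARS kept each call count within 1.5 times. Depth limits the mitochondrial set, where TARS2, AARS2, PARS2, WARS2, FARS2 and VARS2 held fewer than 60 tags over both libraries.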

Other observations

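Selenocysteine is made on its own tRNA after that tRNA has been charged with serine by SARS. Of the 4 measured genes of this route, 0 passed Fisher's exact test at FDR 0.001. By the same rule 15.8% of genes with at least 20 tags were lower and 12.2% higher, and 0 of 4 is not far from those shares. SEPHS2, which makes the selenium donor, had 283 tags in shRNA-Con against 224 in the library labelled shRNA-SOX2. In the same order, PSTK, the kinase of the charged tRNA, had 31 and 18 tags, EEFSEC, the elongation factor, 25 and 30, and SEPHS1 19 and 13, while SARS had 591 and 237.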
